A study of Mus musculus with 10 samples.

Results

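Ribosome footprints of 2 mouse embryonic stem cell libraries labelled Dgcr8 knockout were compared with those of 2 libraries labelled Dicer knockout, 4 of the 10 libraries of a ribosome profiling series. The members are all genes of the deposited count table. It lists 11011 genes, and 10978 of them were tested after a filter on low counts. The other 6 libraries (2 WT, 2 Drosha knockout, 2 with Ago1 and Ago2 both knocked out) entered the model to help estimate the spread, and their values are given as a reference. All 5 groups were derived from the E14 line on a 129/Ola background, grown on gelatine in serum with LIF, the cytokine that keeps mouse embryonic stem cells undifferentiated. Cells were treated with cycloheximide, which stalls ribosomes, and lysates were digested with RNase I so that only the mRNA stretches covered by ribosomes were left. Labels give neither the altered exons nor the clones, and they do not say whether the 2 libraries of a group came from separate cultures. The p-values therefore measure only the spread between these samples, which may be technical. No mRNA libraries were analysed here, so a difference in footprints contains any difference in mRNA amount.

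Dgcr8 is the RNA-binding partner of Drosha in the Microprocessor, which cuts hairpins out of primary miRNA transcripts in the nucleus. Dicer, the product of Dicer1, cuts those hairpins in the cytoplasm into mature miRNAs and also cuts long double-stranded RNA and Microprocessor-independent precursors into small RNAs. Both proteins are thus needed for most miRNAs, which guide Argonaute proteins to sites in mRNAs that pair with the miRNA seed. In mouse embryonic stem cells the miR-290 and miR-302 clusters are the best known miRNAs with such a role.

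Mature miRNAs that share the seed of the miR-290 and miR-302 clusters are printed because the seed defines the sites counted later. Sequences are from RefSeq on GRCm38.p6, written 5′ to 3′, and capitals mark bases 2 to 8. The last line gives miR-17-5p, of the family whose seed is shifted by 1 base, so that the sites of both families partly coincide.
mmu-miR-291a-3p: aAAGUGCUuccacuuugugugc
mmu-miR-294-3p: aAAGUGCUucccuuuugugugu
mmu-miR-302b-3p: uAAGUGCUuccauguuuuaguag
mmu-miR-17-5p: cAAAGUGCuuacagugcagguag
The first pair is encoded at chr7:3218968-3218989 and chr7:3220691-3220712, miR-302b-3p at chr3:127545275-127545297 and miR-17-5p at chr14:115043684-115043706, all on the plus strand.

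Total counts were 80850950 and 4955916 in the first and second Dgcr8-labelled library and 5432599 and 1754710 in the Dicer libraries. The second Dicer library was thus the shallowest of the 10, and 3 counts correspond to 1.71 CPM there, where CPM is the count scaled to a common library size. Correlations of log2 CPM across genes, which are not independent replicates, were 0.952 between the Dicer libraries and 0.928 between the Dgcr8-labelled ones, while the first Dgcr8-labelled library and the first WT library reached 0.959. Embryonic stem cell markers were present throughout: the summed level of 8 (Pou5f1, Sox2, Nanog, Esrrb, Zfp42, Dppa5a, Tdgf1 and Klf4) was 4830 and 4324 CPM in the Dgcr8-labelled libraries and 5599 and 4482 CPM in the Dicer libraries.

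Levels of the targeted genes were read first, as a check of the labels. Dicer1 (chr12:104687742-104751952, GRCm38) was at 160.3 and 169 CPM in the Dgcr8-labelled libraries and 15.8 and 22.1 in the Dicer libraries, against 122 and 124 in WT. Both Dicer libraries were far below the other 8, as their label says (log2 3.14, SE 0.39, edgeR adjusted p = 0.00399). Dgcr8 (chr16:18253948-18289246) was at 145 and 146 CPM in the Dgcr8-labelled libraries and 64.5 and 76.1 in the Dicer libraries, against 32.7 and 33.1 in WT and 169 and 197 in the Drosha libraries. It was thus higher, not lower, in the libraries labelled as its knockout (log2 1.05, SE 0.26, edgeR adjusted p = 0.0441). Against WT it was higher in the Drosha libraries as well, and whether its level bears on the label was not tested. A count over the whole gene cannot show a deleted stretch, so these libraries are called by their label throughout and every direction below is that of the labelled libraries. Drosha (165 and 270.0 against 229 and 215 CPM), Ago1 (24.9 and 38.3 against 80.5 and 64.5) and Ago2 (107 and 99.8 against 135 and 135) did not pass the test. Without the first Dicer library the edgeR adjusted p of Dicer1 was 0.0655 and that of Dgcr8 0.419. The Dgcr8 call was also lost without either Dgcr8-labelled library (0.128 and 0.0999), the second Dicer library (0.141) or either WT library (0.0885 and 0.0960), and with the 4 compared libraries fitted alone (0.0769).

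Across all genes the larger share of the differences lay on the Dicer side. edgeR's quasi-likelihood test with Benjamini-Hochberg adjustment called 447 of 10978 genes (4.07%) at a threshold of 0.05. Of these, 350 were higher in the Dicer libraries (3.19% of the genes tested) and 97 were higher in the Dgcr8-labelled libraries (0.884%). A called gene is one that passed this test. In all 447 the values of the groups did not overlap, and the smallest absolute log2 difference was 1.03. Median log2 differences were -2.27 in the genes higher in Dicer and 2.04 in those higher in the Dgcr8-labelled libraries, and 46 genes differed by more than 4 on the log2 scale. Over all genes tested the median log2 difference was 0.04 and 5673 genes (51.7%) had no overlap between the groups, 2856 (26%) with both Dgcr8-labelled libraries higher and 2817 (25.7%) with both Dicer libraries higher.

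**Figure D1:**
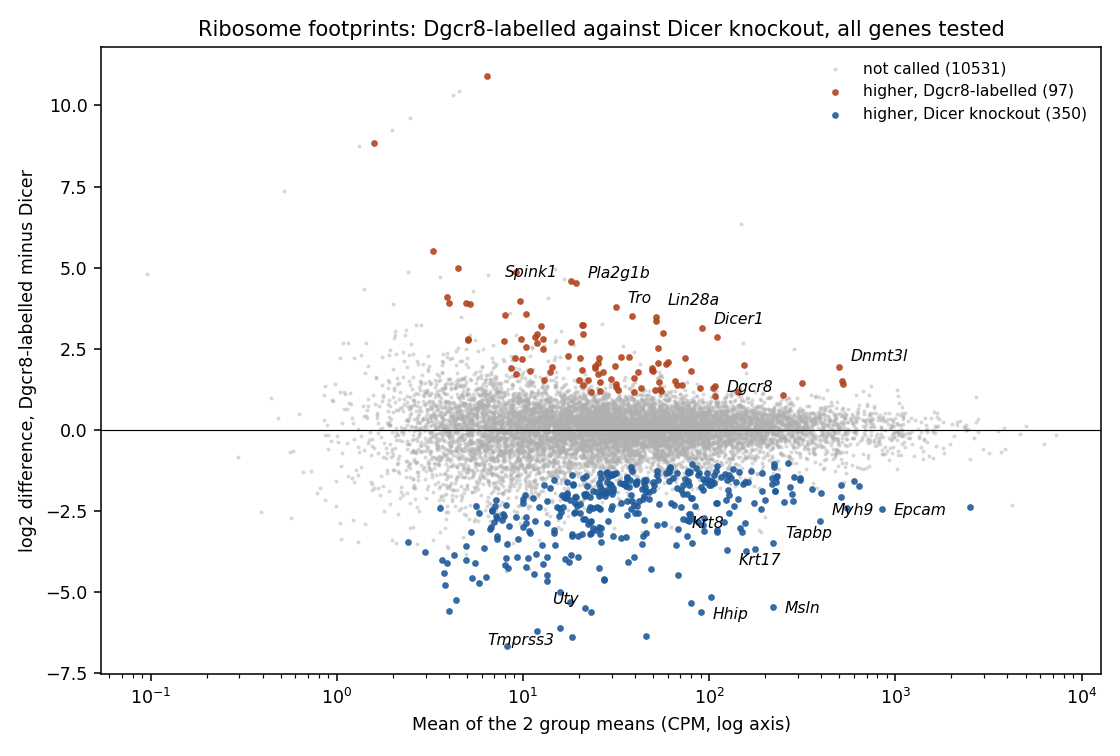
Log2 difference (Dgcr8-labelled minus Dicer) of 10978 genes against the mean of the 2 group means in CPM on a log axis, with called genes in colour and some named. Of the 447 called genes, 350 lie below 0; points with a log2 difference above 8 are genes with no count in the Dicer libraries, whose fitted value depends on the prior count.

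How many genes were called depended on single libraries. Leaving out the first Dicer library left 12 calls by edgeR, all higher in Dicer, with 1009 genes at an unadjusted p under 0.05. Without the first Dgcr8-labelled library 108 genes were called, without the second Dicer library 225, and without either WT library 259 and 254. In such a fit the lone library of a group is assumed to vary like the other groups, and no called gene changed sign in any of the 19 alternatives. Of the 82 called genes among those named by rule, 9 were called in all of them: Msln, Krt17, Krt8, Parva, Myh9, Hhip, Uty, Tbc1d8b and Smyd1.

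Several genes of simple epithelia were higher in the Dicer libraries. Keratins 8 and 18 form the intermediate filaments of simple epithelia and of the trophectoderm, the outer layer of the blastocyst. Krt8 (chr15:101996698-102004482) was at 36.3 and 24.5 CPM in the Dgcr8-labelled libraries and 332 and 207 in the Dicer libraries. Its Dicer values also lay above 88.6 and 71.6 in Drosha and 26.8 and 36.5 in WT (log2 -3.14, SE 0.35, edgeR adjusted p = 0.0037). Krt18, its filament partner, was at 50.4 and 51.4 CPM in the Dgcr8-labelled libraries and 247 and 165 in the Dicer libraries, again with no overlap (log2 -2.02, SE 0.29, edgeR adjusted p = 0.0064). Krt19 was at 21.6 and 21.5 against 186 and 142 CPM (log2 -2.93, SE 0.41, edgeR adjusted p = 0.00608) and Krt7, the least abundant, at 4.84 and 8.17 against 33.8 and 19.3 (log2 -2.08, SE 0.51, edgeR adjusted p = 0.045). These 4 were the called members of a trophectoderm list of which 9 genes were tested, with a median log2 difference of -1.56 against 0.04 over all genes. Called higher in Dicer were 44.4% of that list, against 3.19% of all genes. The transcription factor Tfap2c, also on that list, was at 43.5 and 122 against 59.1 and 83.8 CPM and was not called. As trophectoderm markers, Krt7, Krt8, Krt18 and Tfap2c together reached 135 and 206 CPM in the Dgcr8-labelled libraries, 672 and 476 in the Dicer libraries and 125 to 136 in WT. The count table has no row for the other 5 markers (Cdx2, Eomes, Elf5, Gata3 and Hand1). It holds 9 of the 18 genes of the trophectoderm list. In bulk samples more cells of a type and more RNA per cell cannot be told apart. Krt17, a keratin of basal epithelia, was at 11 and 25.5 CPM in the Dgcr8-labelled libraries and 242 and 221 in the Dicer libraries (log2 -3.71, SE 0.39, edgeR adjusted p = 0.0037).

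Of 23 tested junction genes 7 were called, all higher in Dicer, where 3.19% of all genes were called. Both Dicer libraries were above both Dgcr8-labelled ones in 20 of them, against 25.7% of all genes, and the list median was -1.11. Cldn7, a tight junction claudin, was at 20.8 and 23.9 CPM in the Dgcr8-labelled libraries and 243 and 153 in the Dicer libraries (log2 -3.16, SE 0.41, edgeR adjusted p = 0.00485). Cldn3 (log2 -2.72, SE 0.51, edgeR adjusted p = 0.0161) and Cldn4 (log2 -1.71, SE 0.36, edgeR adjusted p = 0.026), further claudins, and Dsp, the desmosomal plaque protein desmoplakin (log2 -2.24, SE 0.50, edgeR adjusted p = 0.0313), had the same direction. St14, the membrane protease matriptase (log2 -1.83, SE 0.39, edgeR adjusted p = 0.0277), and Grhl2, a transcription factor of epithelial genes (log2 -1.85, SE 0.43, edgeR adjusted p = 0.0365), completed the set with Epcam. Epcam, a homophilic adhesion molecule, was at 242 and 281 CPM in the Dgcr8-labelled libraries and 1825 and 1039 in the Dicer libraries and at 668 and 497 in WT (log2 -2.46, SE 0.48, edgeR adjusted p = 0.0183). Its Dgcr8-labelled values were the lowest of the 10 libraries, and the gene lies in a stretch of chromosome 17 that is described with the chromosomes. The E-cadherin gene Cdh1, at 1747 and 1791 against 4061 and 2501 CPM, was not called (edgeR adjusted p = 0.239). Of the 12 keratin and junction genes named as called, 10 lost the call without the first Dicer library (edgeR adjusted p 0.0535 to 0.491), all but Krt8 and Krt17. Without the first Dgcr8-labelled library 7 lost it (0.114 to 0.216), without the second 5 (0.0539 to 0.0819) and without the second Dicer library 3 (0.0618 to 0.0912), while single WT libraries decided up to 3 of them (0.0518 to 0.0808) and single Drosha libraries Krt7 (0.0546), which thinning to equal depth ended as well (0.1000).

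Genes named for the largest differences or the smallest p on the Dicer side encode proteins of several kinds. Msln, which encodes the surface protein mesothelin (chr17:25748613-25754378), was at 6.51 and 13.7 CPM in the Dgcr8-labelled libraries and 496 and 367 in the Dicer libraries, with 4.43 and 4.11 in WT. Its values were high in both Dicer libraries, at 349.8 and 154 CPM in the Drosha libraries and at 150 and 89.8 in the Ago libraries. It had the smallest p of all genes (log2 -5.48, SE 0.53, edgeR adjusted p = 0.00358). Tmprss3, a membrane serine protease, was at 0.376 and 0.598 CPM in the Dgcr8-labelled libraries and 44.7 and 28.1 in the Dicer libraries (log2 -6.41, SE 0.95, edgeR adjusted p = 0.0066). Hhip, a binding protein that restrains Hedgehog ligands, was at 2.23 and 5.98 against 237 and 116 CPM (log2 -5.61, SE 0.74, edgeR adjusted p = 0.00505). In Drosha Hhip was at 84.4 and 31.5 CPM and in Ago at 115 and 42.0. All 3 were scarce in both Dgcr8-labelled libraries and plain in both Dicer libraries. Others of this size were Cdh13 (T-cadherin, log2 -6.21), the atypical cadherin Fat2 (log2 -5.15), Pglyrp1 (a peptidoglycan recognition protein, log2 -5.49), C1qtnf9 (log2 -5.01), Pof1b (log2 -5.32) and Chit1 (a chitinase, log2 -6.11). Smyd1, a muscle methyltransferase, was at 2.97 and 4.58 against 32.4 and 38.6 CPM, and at 0.184 and 0.166 in WT (log2 -3.29, SE 0.40, edgeR adjusted p = 0.00399). It was at 40.6 and 27.5 CPM in Drosha and at 25.5 and 20.4 in Ago. Msln, Hhip and Smyd1 kept the call in all alternatives, whereas the others named here lost it without the first Dicer library (edgeR adjusted p 0.0646 to 0.498). Tmprss3, Cdh13, Fat2, Pglyrp1, Pof1b and Chit1 also lost it without the first Dgcr8-labelled library (0.0694 to 0.228), and Chit1 without the second (0.0625) or either WT library (0.0592 and 0.0677).

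**Figure D2:**
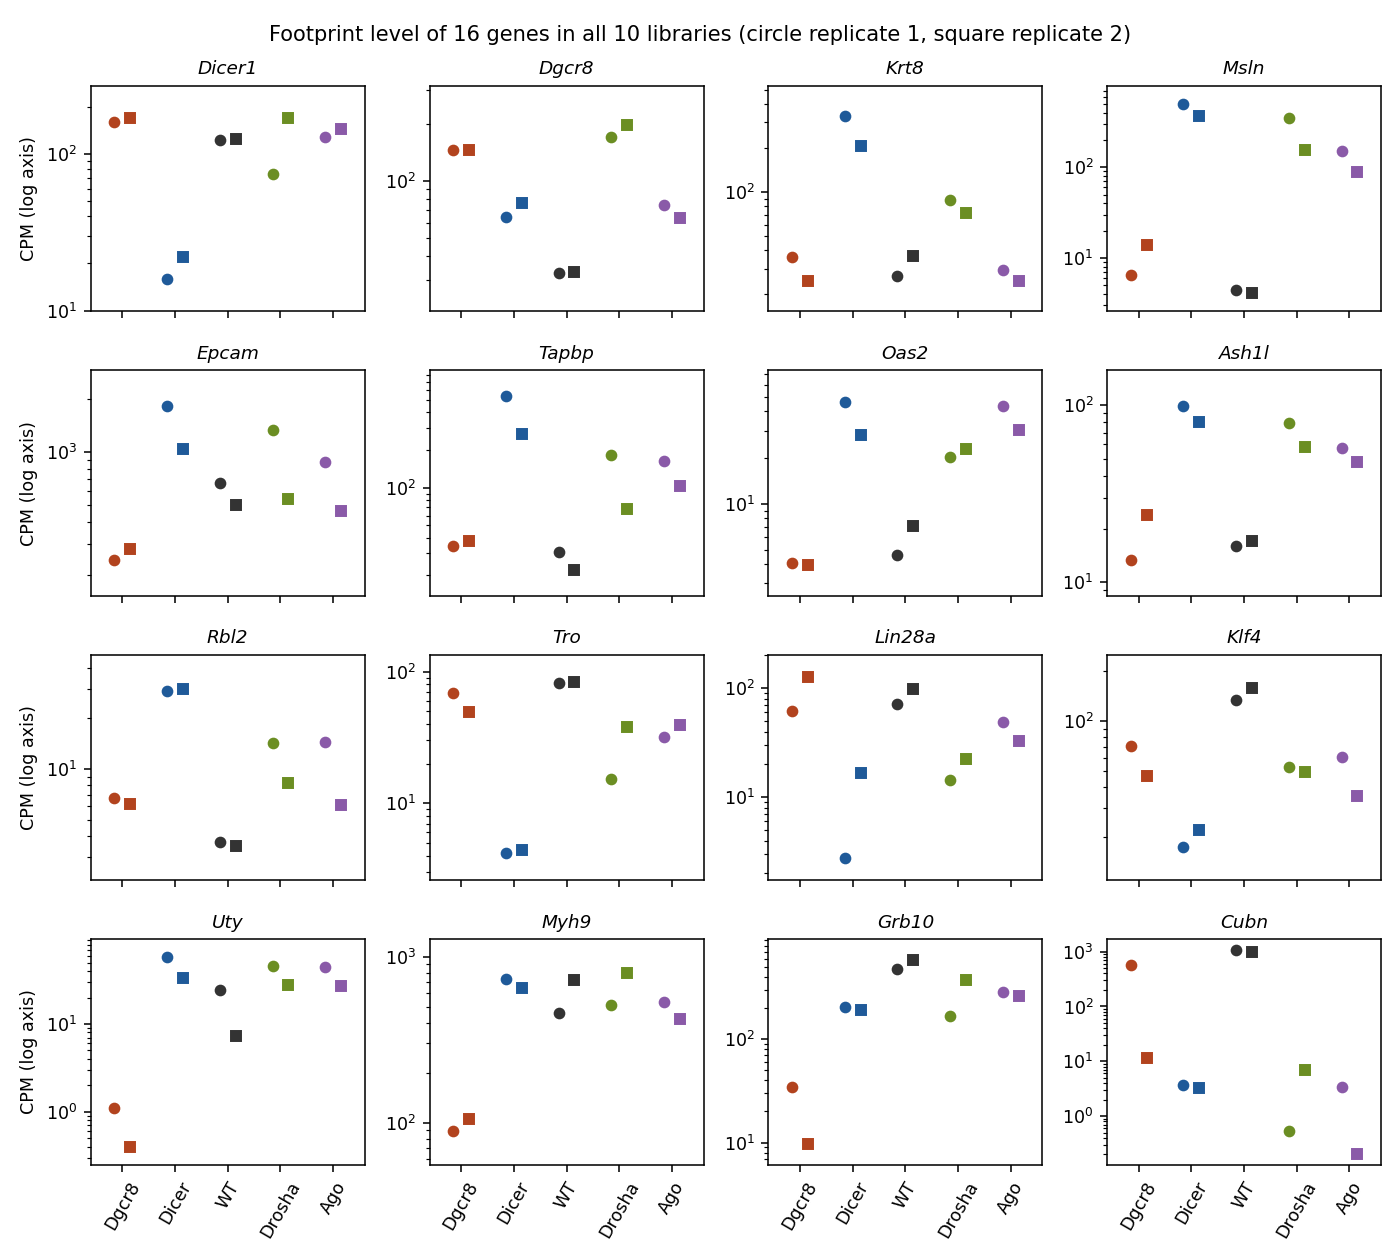
Footprint level in CPM (log axis, 1 panel per gene) of 16 genes in the 10 libraries, circles for replicate 1 and squares for replicate 2. The Dicer libraries lie above the Dgcr8-labelled ones for Krt8, Msln, Epcam, Tapbp, Oas2, Ash1l and Rbl2 and below them for Tro, Lin28a and Klf4, and Cubn separates the first Dgcr8-labelled library (578 CPM) from the second (11.4 CPM).

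Of 24 tested interferon-stimulated genes, which cells switch on after sensing viral or double-stranded RNA, 10 were called. All 10 (41.7% of those tested) were higher in the Dicer libraries, against 3.19% of all genes, and the list median was -1.62. Oas2, an oligoadenylate synthetase activated by double-stranded RNA, was at 4.1 and 3.98 CPM in the Dgcr8-labelled libraries and 46.5 and 28.1 in the Dicer libraries (log2 -3.22, SE 0.41, edgeR adjusted p = 0.00423). Both Dgcr8-labelled values lay beside 4.61 and 7.09 CPM in WT, and the Dicer values beside 43.7 and 30.2 in the Ago libraries. Parp14, an ADP-ribosyltransferase, was at 12.5 and 15.1 CPM in the Dgcr8-labelled libraries and 140.2 and 62.3 in the Dicer libraries (log2 -2.90, SE 0.42, edgeR adjusted p = 0.00653). Parp9, which works with Dtx3l, was at 4.1 and 5.18 against 49 and 34.2 CPM (log2 -3.20, SE 0.49, edgeR adjusted p = 0.0066), and Dtx3l itself at 6.88 and 7.57 against 55.2 and 44.7 (log2 -2.80, SE 0.49, edgeR adjusted p = 0.0122). Irf9, the DNA-binding subunit of the interferon-activated ISGF3 complex, was at 6.69 and 10.6 against 28.1 and 23.7 CPM (log2 -1.62, SE 0.39, edgeR adjusted p = 0.0432). Xaf1, Oasl2, Oas1a, Tapbp and Eif2ak2 were the other called members.

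Among 17 genes of double-stranded RNA sensing, Eif2ak2 alone was called (5.88%, against 4.07% of all genes). It encodes PKR, the kinase that halts translation when it binds double-stranded RNA, and was at 16.2 and 11 CPM in the Dgcr8-labelled libraries and 49.4 and 45.2 in the Dicer libraries (log2 -1.78, SE 0.32, edgeR adjusted p = 0.0126). Both Dgcr8-labelled values were also below 25.6 and 26.5 CPM in WT, and the gene lies in the same stretch of chromosome 17 as Epcam. Ddx58, which encodes the sensor RIG-I, was at 47.8 and 61.6 against 71.6 and 63.4 CPM and was not called (edgeR adjusted p = 0.582). All 10 interferon list calls were lost without the first Dicer library (edgeR adjusted p 0.0629 to 0.380), 7 without the first Dgcr8-labelled library (0.0566 to 0.199) and 4 without the second Dicer library (0.0615 to 0.144). Irf9, Xaf1 and Oas1a lost theirs without the second Dgcr8-labelled library (0.0539 to 0.111), and Oasl2, Irf9 and Oas1a without a WT library (0.0539 to 0.0808), Oas1a and Oasl2 also without a Drosha library (0.0507 to 0.0521). Oasl2, Irf9 and Oas1a were lost with the 4 compared libraries alone (0.0506 to 0.0713), Irf9 and Oas1a after thinning to equal depth (0.0991 to 0.139) and Irf9 with total counts as library sizes (0.0513).

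Antigen processing genes, a list chosen after the values were seen, had 5 of 12 tested members called, all higher in Dicer. Over all genes 3.19% were called higher in Dicer. Erap1, the aminopeptidase that trims peptides for MHC class I, was at 5.02 and 6.97 CPM in the Dgcr8-labelled libraries and 176 and 85.5 in the Dicer libraries (log2 -4.49, SE 0.56, edgeR adjusted p = 0.00399). Tapbp, or tapasin, which loads these peptides, was at 34.4 and 37.3 against 543 and 269 CPM (log2 -3.51, SE 0.51, edgeR adjusted p = 0.0064). Psme2, a proteasome activator subunit, was at 11.3 and 11.8 against 87 and 50.2 (log2 -2.58, SE 0.37, edgeR adjusted p = 0.0064), and the peptide transporter subunit Tap2 at 7.8 and 3.98 against 101 and 22.1 (log2 -3.35, SE 0.82, edgeR adjusted p = 0.0446). B2m, the common light chain of class I, was at 83.1 and 19.13 against 51.2 and 32 CPM, so that the groups overlapped. In the fit lacking the first Dicer library the edgeR adjusted p of Psme2, Irgm1 (the fifth call) and Tap2 was 0.0923 to 0.547, and that of Tapbp 0.0646. Tap2 and Irgm1 also lost the call without either Dgcr8-labelled library (0.0917 to 0.234) or either WT library (0.0586 to 0.0864), Irgm1 without the second Dicer library (0.153), after thinning to equal depth (0.0671) or with total counts as library sizes (0.0572), and Tapbp without the first Dgcr8-labelled library (0.0566).

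Of 26 tested genes reported as targets of these embryonic stem cell miRNAs, 5 (19.2%) were called, all higher in Dicer, against 3.19% of all genes. Of the 26, 22 had a log2 difference below 0, against 47.5% of all genes, and the list median was -1.02. Ash1l, a histone methyltransferase, was at 13.4 and 23.9 CPM in the Dgcr8-labelled libraries and 98.5 and 80.5 in the Dicer libraries (log2 -2.29, SE 0.34, edgeR adjusted p = 0.0066). Ddhd1, a phospholipase, was at 11 and 10.2 against 44.3 and 39.2 CPM (log2 -1.98, SE 0.30, edgeR adjusted p = 0.00691), and Rbl2, a retinoblastoma-like repressor of the cell cycle, at 6.69 and 6.18 against 28.9 and 29.8 (log2 -2.18, SE 0.48, edgeR adjusted p = 0.0313). In these 3 genes the Dgcr8-labelled libraries were on the side of WT, where Ash1l was at 16 and 17.2, Ddhd1 at 12.2 and 11.3 and Rbl2 at 3.69 and 3.48 CPM. Casp2, an apoptotic caspase (log2 -1.89, SE 0.43, edgeR adjusted p = 0.0343), and Pkd1, the polycystin of primary cilia (log2 -1.66, SE 0.30, edgeR adjusted p = 0.0144), were the other calls. Lefty1, an inhibitor of Nodal, was at 10.03 and 69.5 against 562 and 121 CPM, did not overlap, and with this spread was not called (edgeR adjusted p = 0.149). Among the 4 members with a log2 difference above 0 was Dkk1, at 4.70, which was not called either. All 5 calls were lost without the first Dicer library (edgeR adjusted p 0.0816 to 0.279). Pkd1, Rbl2 and Casp2 lost theirs without the first Dgcr8-labelled library (0.0694 to 0.164), Pkd1 and Rbl2 without the second (0.0539 and 0.104), Rbl2 and Casp2 without the second Dicer library (0.108 and 0.0850) or a WT library (0.0546 to 0.0602). Casp2 was also lost with the 4 compared libraries alone (0.0510) and after thinning to equal depth (0.0586).

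Sites in the 3′ UTR of the called targets are printed as DNA, 5′ to 3′ on the transcript, from GENCODE M21 on GRCm38, with capitals for the bases that match the seed or the A that follows. One site is printed for each of the 4 called targets that hold one, and Pkd1 holds none.
Rbl2: ttcaataaAGCACTTAtaaatta
Ash1l: ctgctcagAGCACTTAgaactgct
Ddhd1: aatttaaaAGCACTTtattttat
Casp2: aacctagaAGCACTTgtctctgc
They lie at chr8:91123822-91123844, chr3:89077546-89077569, chr14:45595361-45595383 on the minus strand and chr6:42281550-42281572. Rbl2 holds 1 such site, Ash1l 2, Casp2 3 and Ddhd1 4, counting matches to bases 2 to 8 and matches to bases 2 to 7 followed by A.

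Over all genes the median difference was lower the more of these sites a gene held. The 7-base matches counted for the miR-290 and miR-302 seed were AGCACTT and GCACTTA on the transcript strand. The 8678 genes without a site had a median log2 difference of 0.09, the 1780 with 1 site -0.12 and the 513 with 2 or more -0.26, against 0.04 over all 10971 genes with a 3′ UTR. Called genes higher in Dicer made up 2.72%, 4.55% and 6.43% of these groups, and called genes higher in the Dgcr8-labelled libraries 1.05%, 0.281% and 0.195%. The order was the same in each replicate: with 2 or more sites the median was -0.31 between the first libraries and -0.27 between the second. Against WT, which the groups share as a reference, the genes with 2 or more sites had a median of 0.05 in the Dgcr8-labelled libraries, 0.29 in Dicer, 0.18 in Drosha and 0.15 in Ago.

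Longer 3′ UTRs hold more sites, and length moved with the difference as well. With the genes divided by 3′ UTR length into 4 groups of equal size, the median log2 difference from the shortest to the longest was 0.16, 0.06, 0.00 and -0.09. Among the longest 3′ UTRs, the 1498 genes without a miR-290 or miR-302 site had a median of -0.01 and 2.14% called higher in Dicer, and the 1245 with 1 or more had -0.16 and 5.38%. Sites of the miR-17 family, whose match GCACTTT overlaps the former, gave -0.30 for 2 or more. The miR-25 family (match GTGCAAT) gave -0.16, the miR-26 family (match TACTTGA) -0.12 and let-7 (match CTACCTC), which is scarce in embryonic stem cells, -0.04. Matches were counted by letters alone, genes can hold sites of several families, and no test was run on these medians.

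**Figure D3:**
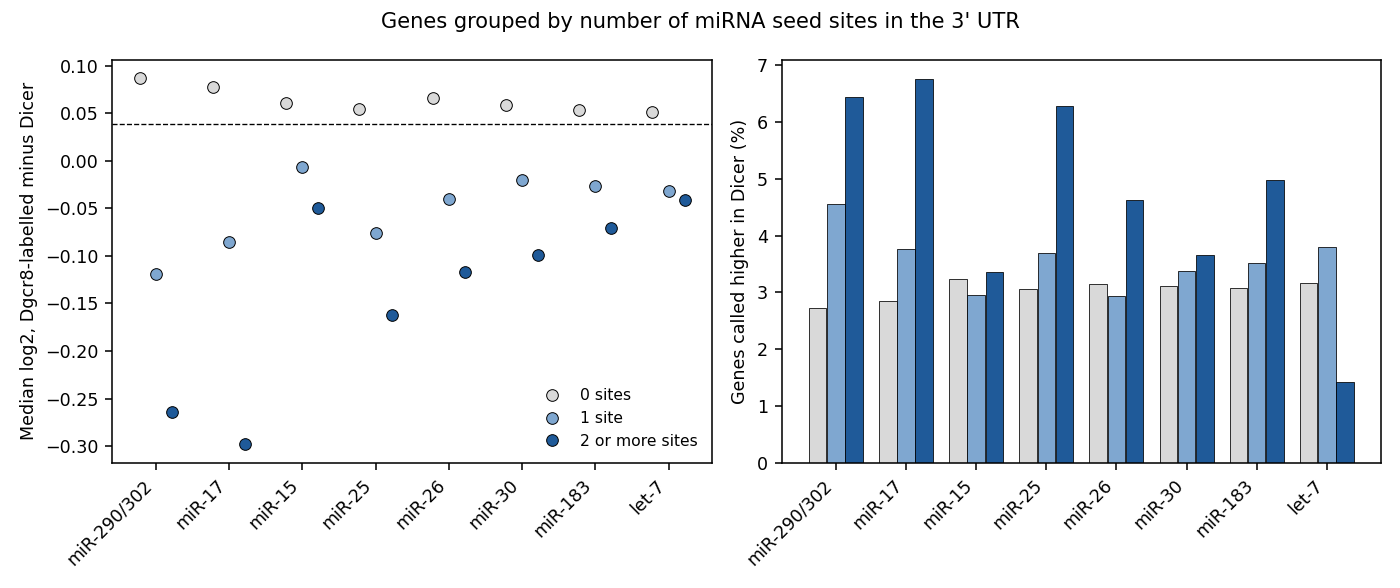
Left, median log2 difference (Dgcr8-labelled minus Dicer) of genes with 0, 1 and 2 or more 7-base sites in the 3′ UTR for 8 miRNA families, with the median of all genes with a 3′ UTR as a dashed line; right, percent of each group called higher in Dicer. For the miR-290 and miR-302 seed the medians are 0.09, -0.12 and -0.26, and for let-7 the 2 groups with sites lie close together.

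Of 33 tested actin and adhesion genes, 4 (12.1%) were called by edgeR, all higher in Dicer, against 3.19% of all genes. The list median was -0.27. DESeq2 called 7 higher in Dicer and 1 higher in the Dgcr8-labelled libraries. Myh9, which encodes the motor chain of myosin IIA, was at 89.2 and 106 CPM in the Dgcr8-labelled libraries and 734 and 646 in the Dicer libraries (log2 -2.82, SE 0.34, edgeR adjusted p = 0.00399). In WT it was at 455 and 719 and in Drosha at 512 and 795 CPM, so the Dgcr8-labelled libraries were the low ones among all 10. Parva, a focal adhesion protein that links integrins to actin, was at 11.3 and 6.38 against 84.4 and 80.5 CPM, and here the Dicer libraries were the high ones, with 10.8 and 12.1 in WT (log2 -3.17, SE 0.35, edgeR adjusted p = 0.0037). Rhob, a small GTPase (log2 -2.36, SE 0.36, edgeR adjusted p = 0.0066), and Cald1, the actin-binding caldesmon (log2 -1.57, SE 0.29, edgeR adjusted p = 0.0144), were the other calls. Myh10 and Actb, at 324 and 244 against 362 and 403 CPM and at 3697 and 6759 against 4706 and 5015 CPM, were not called. Rhob (edgeR adjusted p = 0.0646) and Cald1 (0.186) lost the call without the first Dicer library, and Cald1 without the second Dgcr8-labelled library (0.0624).

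Annexins and galectins, calcium-dependent membrane-binding and sugar-binding proteins, had 8 of 17 tested genes called, 7 of them higher in Dicer. Over all genes 4.07% were called, and 3.19% were called higher in Dicer. Anxa1 was at 5.57 and 16.3 CPM in the Dgcr8-labelled libraries and 123 and 121 in the Dicer libraries (log2 -3.55, SE 0.54, edgeR adjusted p = 0.0066). Lgals9 was at 10.8 and 54.8 against 275 and 246 CPM (log2 -3.03, SE 0.68, edgeR adjusted p = 0.0335), and the galectin-binding protein gene Lgals3bp at 2.05 and 3.39 against 73.8 and 22.6 (log2 -4.27, SE 0.97, edgeR adjusted p = 0.0343). Anxa6 had the opposite direction, at 318 and 358 against 160.0 and 164 CPM (log2 1.06, SE 0.25, edgeR adjusted p = 0.0368). Anxa2, Anxa3, Anxa7 and Lgals4 were the remaining calls. Without the first Dicer library none of the 8 was called (edgeR adjusted p 0.0646 to 0.356), and without the first Dgcr8-labelled library Anxa1 alone was (the others 0.0770 to 0.191). Other libraries whose absence ended calls were the second Dgcr8-labelled one (5 genes, 0.0635 to 0.107), the second Dicer one (4 genes, 0.0748 to 0.178), the WT ones (3 genes each, 0.0501 to 0.109) and the second Drosha one (Anxa7, 0.0502). With the 4 compared libraries alone Anxa2, Anxa6 and Anxa7 were lost (0.0509 to 0.0773), by limma-voom Lgals4 (0.0629), and Anxa7 after thinning to equal depth (0.0630) or with total counts as library sizes (0.0561).

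Genes higher in the Dgcr8-labelled libraries numbered 97. Tro, or trophinin, an X-linked adhesion gene, was at 68.6 and 49.4 CPM in the Dgcr8-labelled libraries and 4.15 and 4.41 in the Dicer libraries, with 81.9 and 83.8 in WT (log2 3.80, SE 0.45, edgeR adjusted p = 0.00399). Both Dicer values were the lowest of the 10 libraries. Pla2g1b, a secreted phospholipase, was at 21.6 and 51.4 CPM in the Dgcr8-labelled libraries and 0.989 and 2.76 in the Dicer libraries (log2 4.51, SE 0.68, edgeR adjusted p = 0.0066), and Spink1, a secreted trypsin inhibitor, at 40.9 and 27.9 against 0.198 and 3.86 CPM (log2 4.6, SE 0.90, edgeR adjusted p = 0.0184). Tcl1, a coactivator of the kinase Akt that is abundant in embryonic stem cells, was at 134 and 114 against 37.4 and 33.1 CPM with little spread in either group (log2 1.81, SE 0.26, edgeR adjusted p = 0.00653). The aldo-keto reductase Akr1b8 (log2 3.22), the semaphorin Sema5b (log2 3.20), the membrane protein Steap1 (log2 3.50) and the GTPase Rnd1 (log2 2.96) were also among the largest. Kdelr3, an ER retrieval receptor, was at 171 and 18.9 against 13.1 and 4.41 CPM, and the first Dgcr8-labelled library was far above the second (log2 3.34, SE 0.83, edgeR adjusted p = 0.0455). Tgfbi, a matrix protein (log2 3.24, SE 0.63, edgeR adjusted p = 0.0182), and Serpine2, a protease inhibitor (log2 2.98, SE 0.75, edgeR adjusted p = 0.0481), had the same gap between their Dgcr8-labelled libraries. All of these lost the call without the first Dicer library (edgeR adjusted p 0.0646 to 0.262). Spink1, Tgfbi, Serpine2 and Kdelr3 also lost it without the first Dgcr8-labelled library (0.0846 to 0.400), Rnd1 without the second (0.0682), and Tgfbi, Rnd1, Kdelr3 and Serpine2 without the second Dicer library (0.0666 to 0.223). Kdelr3 and Serpine2 further depended on each WT and each Drosha library (0.0504 to 0.0732), and Kdelr3 on each Ago library (0.0513 and 0.0523). By limma-voom Steap1, Pla2g1b, Tgfbi, Rnd1, Serpine2 and Kdelr3 were not called (0.0583 to 0.314), and Kdelr3 was lost with the 4 compared libraries alone (0.0729).

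Pluripotency genes differed in a few members. Of 20 naive pluripotency genes 3 (15%) were called, all higher in the Dgcr8-labelled libraries, against 0.884% of all genes. The list median was 0.07. DESeq2 called 3 in each direction and limma-voom 1 in each. Klf4 was at 71 and 46.8 CPM in the Dgcr8-labelled libraries and 17.4 and 22.1 in the Dicer libraries, below 135 and 158 in WT in either group (log2 1.6, SE 0.35, edgeR adjusted p = 0.0301). Nr5a2, a nuclear receptor that binds the Pou5f1 gene, was at 79.2 and 115 against 34 and 40.8 CPM (log2 1.38, SE 0.32, edgeR adjusted p = 0.0365), and the homeobox gene Gbx2 at 43.9 and 29.9 against 3.36 and 7.17 (log2 2.94, SE 0.69, edgeR adjusted p = 0.0368). Klf2, a relative of Klf4, lay on the other side, at 239.7 and 424 against 702 and 782 CPM without overlap, and was not called by edgeR (log2 -1.16, SE 0.30, edgeR adjusted p = 0.0576) but was by DESeq2 (0.00579) and limma-voom (0.0334). The core factors were not called. Pou5f1 was at 729.9 and 838 against 651 and 793 CPM and Nanog at 514 and 720.0 against 622 and 612, both with overlapping groups. Dnmt3l, the cofactor of the de novo DNA methyltransferases, was at 658 and 927 CPM in the Dgcr8-labelled libraries and 168 and 244 in the Dicer libraries, with 457 and 513 in WT (log2 1.95, SE 0.32, edgeR adjusted p = 0.0099). All 4 calls were lost without the first Dicer library (edgeR adjusted p 0.144 to 0.395). Klf4, Nr5a2 and Gbx2 also lost theirs without the first Dgcr8-labelled (0.0621 to 0.146), the second Dicer (0.0835 to 0.122) or the second WT library (0.0559 to 0.0616). Gbx2 and Nr5a2 lost theirs without the second Dgcr8-labelled (0.0570 and 0.133) or the first WT library (0.0544 and 0.0546). By limma-voom Klf4 and Gbx2 were not called (0.0582 to 0.0681), nor was Nr5a2 with the 4 compared libraries alone (0.0509).

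Within the small RNA pathway 2 of 23 tested genes (8.70%, against 4.07% of all genes) were called, in opposite directions. Lin28a, which blocks the maturation of let-7 precursors, was at 61.7 and 127 CPM in the Dgcr8-labelled libraries and 2.77 and 16.5 in the Dicer libraries, with 71.7 and 98.1 in WT (log2 3.47, SE 0.67, edgeR adjusted p = 0.017). Its Dicer values were lower than those of any other group except the first Drosha library, which lay at 14.2 CPM between them. It was the only call among 22 let-7 targets, of which Nras, at 61.7 and 59.97 against 23.7 and 30.3 CPM, missed the threshold (edgeR adjusted p = 0.0602). Tnrc6b, a GW182 protein that links Argonautes to mRNA decay, was at 61 and 65.3 against 158 and 148 CPM, with 47 and 41.7 in WT (log2 -1.28, SE 0.25, edgeR adjusted p = 0.0192). Its paralog Tnrc6a had the same direction without passing (log2 -1.07, SE 0.34, edgeR adjusted p = 0.113). When the first Dicer library was left out, the edgeR adjusted p of Lin28a was 0.137 and that of Tnrc6b 0.208, and without the second Dgcr8-labelled library they were 0.0570 and 0.0566. Tnrc6b also lost the call without the first Dgcr8-labelled (0.102), the second Dicer (0.0680) or the first WT library (0.0502).

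Primitive endoderm genes were high in 1 Dgcr8-labelled library only. Primitive endoderm is the extraembryonic layer that forms the yolk sac, and 27 of 31 tested genes had a log2 difference above 0 with a median of 1.21, yet 1 was called (3.23%, against 4.07% of all genes). Cubn, the endocytic receptor cubilin, was at 578 and 11.4 CPM in the Dgcr8-labelled libraries and 3.76 and 3.31 in the Dicer libraries, and at 1052 and 981 in WT (edgeR adjusted p = 0.0508). The second Dgcr8-labelled library was thus close to the Dicer libraries and the first nearer to WT. Pdgfra, a receptor of this lineage, showed the same split (93.1 and 3.79 CPM in the Dgcr8-labelled libraries and 6.72 and 2.76 in the Dicer libraries), as did Lama1, a basement membrane laminin (1919.8 and 246 CPM in the Dgcr8-labelled libraries and 259 and 195 in the Dicer libraries). The summed level of 8 endoderm markers was 2215 and 569 CPM in the Dgcr8-labelled libraries, 551 and 413 in Dicer, and 2893 and 2646 in WT. Plod2, a collagen-modifying enzyme, was the call (361 and 129.5 against 61.9 and 61.2 CPM; log2 2.00, SE 0.43, edgeR adjusted p = 0.0286), and it was lost without the first Dgcr8-labelled (0.168), the first Dicer (0.261) or the second Dicer library (0.133). Without the first Dgcr8-labelled library the list median was -0.11 and edgeR called no member, with 3 at an unadjusted p under 0.05. Without the second the median was 1.78 with 14 called, and with all libraries DESeq2 called 6 and limma-voom 0.

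Some signalling lists held 1 call each: Bmp4 among 14 BMP genes, Dusp4 among 18 of the FGF and ERK feedback, Osm among 15 of LIF signalling and Notum among 19 of the Wnt pathway. In that order these are 7.14%, 5.56%, 6.67% and 5.26% of the genes tested, near the 4.07% called over all genes. Bmp4, a ligand that with LIF keeps embryonic stem cells undifferentiated, was at 60.4 and 96.8 CPM in the Dgcr8-labelled libraries and 23.7 and 17.1 in the Dicer libraries (log2 1.92, SE 0.39, edgeR adjusted p = 0.0222). Dusp4, a phosphatase induced by and acting on ERK, was at 16.7 and 23.5 against 1.78 and 4.41 CPM (log2 2.85, SE 0.69, edgeR adjusted p = 0.0424). Both were higher in each Dgcr8-labelled library than in each Dicer library. On the Dicer side were Osm, the LIF-related cytokine oncostatin M (0.933 and 1.2 against 33.2 and 18.8 CPM; log2 -4.68, SE 0.80, edgeR adjusted p = 0.0115), and Notum, an enzyme that inactivates Wnt ligands (29.2 and 90.5 against 429.7 and 211 CPM; log2 -2.44, SE 0.55, edgeR adjusted p = 0.0329). No member of 19 tested Nodal and TGF-beta genes was called by edgeR, 5 had an unadjusted p under 0.05, and DESeq2 called 2. The Hippo list had 2 calls among 20 genes (10%, against 4.07% of all genes). They were Lats1, a kinase of the pathway, higher in Dicer (log2 -1.80, SE 0.37, edgeR adjusted p = 0.0234) and Amot, a scaffold that binds Yap, higher in the Dgcr8-labelled libraries (log2 1.77, SE 0.40, edgeR adjusted p = 0.0339). With the first Dicer library left out, the edgeR adjusted p of Bmp4, Dusp4, Osm and Notum was 0.129 to 0.435, and that of Lats1 and Amot 0.194 and 0.349. The first Dgcr8-labelled library decided Osm, Dusp4 and Notum (0.0932 to 0.149) and Lats1 and Amot (0.127 and 0.171), and the second Bmp4 and Dusp4 (0.0860 and 0.111). Without the second Dicer library Dusp4, Bmp4, Lats1 and Amot were at 0.0787 to 0.138, and without a WT library Dusp4, Lats1 and Amot at 0.0549 to 0.0751. By limma-voom Dusp4 (0.102) and Amot (0.0606) were not called.

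A few cell cycle and chromatin genes differed, in both directions. Of 26 genes of the G1 to S transition 7.69% were called and of 15 histone genes 13.3%, against 4.07% of all genes. Cdkn2a, which encodes the inhibitors p16 and p19Arf, was at 7.8 and 18.7 CPM in the Dgcr8-labelled libraries and 46.9 and 48 in the Dicer libraries (log2 -1.89, SE 0.39, edgeR adjusted p = 0.0231), and with Rbl2 it made 2 calls among 26 genes of the G1 to S transition. Cdkn1a, or p21, a known miR-290 target, was at 38.7 and 35.5 against 75.5 and 66.7 CPM without overlap and was not called (edgeR adjusted p = 0.156). Zmat3, the only call among 22 p53 targets (4.55%), was higher in the Dgcr8-labelled libraries (log2 1.23, SE 0.29, edgeR adjusted p = 0.0365). Of 15 histone genes 2 were called, both linker histones higher in the Dgcr8-labelled libraries. Hist1h1b was at 778 and 751 CPM in the Dgcr8-labelled libraries and 277 and 264 in the Dicer libraries (log2 1.5, SE 0.34, edgeR adjusted p = 0.0347) and the testis variant Hist1h1t at 17.7 and 12 against 1.38 and 1.1 (log2 3.53, SE 0.68, edgeR adjusted p = 0.017). Histone genes resemble each other, so reads can be split between copies. Polycomb members Aebp2 (log2 -1.12, SE 0.25, edgeR adjusted p = 0.0326) and Cbx6 (log2 -1.61, SE 0.39, edgeR adjusted p = 0.0429) were higher in Dicer. They were the calls among 25 Polycomb genes (8%), whose list median was 0.07. The methyl-CpG reader Zbtb38 (log2 -1.59, SE 0.29, edgeR adjusted p = 0.0137) was higher in Dicer too, from a DNA methylation list of 16 genes with 12.5% called. Every call in this paragraph was lost without the first Dgcr8-labelled library (edgeR adjusted p 0.0833 to 0.209), the first Dicer library (0.0997 to 0.406) and the second Dicer library (0.0705 to 0.175). Zmat3, Rbl2, Hist1h1b, Aebp2 and Cbx6 also lost theirs without the second Dgcr8-labelled library (0.0568 to 0.104) or a WT library (0.0546 to 0.0805). Zmat3 (0.0505) and Hist1h1t (0.0820) were not called by limma-voom, Cdkn2a, Zmat3 and Aebp2 with the 4 compared libraries alone (0.0510 to 0.0726), and Aebp2 and Cbx6 after thinning to equal depth (0.0639 to 0.0755).

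Several housekeeping lists had no call, against 4.07% of all genes. None of 72 cytosolic ribosomal protein genes was called by edgeR, with a list median of 0.31, 3 at an unadjusted p under 0.05 and 0 by DESeq2. Of 41 translation factors none was called, with a median of 0.36, 4 at an unadjusted p under 0.05 and 1 by DESeq2. In 21 of the 41 both Dgcr8-labelled libraries were above both Dicer libraries, against 26% of all genes. The reverse held in 1, against 25.7% of all genes. Glycolysis (26 genes, median 0.46, 6 at an unadjusted p under 0.05, 3 by DESeq2) and oxidative phosphorylation (32 genes, median 0.13, 2 and 0) likewise held no edgeR call. Both Dgcr8-labelled libraries were above both Dicer libraries in 14 glycolysis, 10 oxidative phosphorylation and 19 ribosomal protein genes. In that order, the reverse held in 2, 4 and 5 genes. The integrated stress response, the program run by Atf4, had a list median of -0.39. Of its 38 genes, 30 had a log2 difference below 0, against 47.5% of all genes. Their summed level was 11571 and 5863 CPM in the Dgcr8-labelled libraries and 11207 and 8953 in the Dicer libraries. Leaving out 1 library at a time, the list median ran from -1.27 to 0.10. Gpt2 (alanine aminotransferase) alone was called, at 99.1 and 44.6 CPM in the Dgcr8-labelled libraries and 353 and 299 in the Dicer libraries (log2 -2.17, SE 0.36, edgeR adjusted p = 0.0105). That call was lost without the first Dicer library (0.0997).

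Remaining lists had few calls, where 4.07% of all genes were called. Cnot6, a deadenylase of the CCR4-NOT complex, was the call among 23 genes of deadenylation and decapping and was higher in Dicer (log2 -1.56, SE 0.38, edgeR adjusted p = 0.0448). Nefl, a neurofilament subunit, was the call among 8 neuronal genes (log2 -1.33, SE 0.33, edgeR adjusted p = 0.0455), and Fbln2, a matrix fibulin, that among 15 genes of fibroblasts and interstitial matrix, higher in the Dgcr8-labelled libraries (log2 2.80, SE 0.52, edgeR adjusted p = 0.0154). Crabp1, which binds retinoic acid, was at 31 and 9.96 against 2.97 and 3.86 CPM and was the call among 10 genes of the retinoic acid response (log2 2.68, SE 0.63, edgeR adjusted p = 0.0372). These 4 calls were lost without the first library of either group (edgeR adjusted p 0.0621 to 0.399) or the second Dicer library (0.0795 to 0.178). Cnot6 lost it without the second Dgcr8-labelled library too (0.149), Cnot6, Nefl and Crabp1 without a WT library (0.0571 to 0.100), and Cnot6 and Crabp1 without the first Drosha library (0.0550 and 0.0511), as Cnot6 did without the second (0.0505). Other alternatives ended them too: limma-voom for Cnot6, Fbln2 and Crabp1 (0.0583 to 0.222), thinning to equal depth for Fbln2, Nefl and Crabp1 (0.0586 to 0.132), the 4 compared libraries alone for Nefl and Crabp1 (0.0767 and 0.0509) and total counts as library sizes for Cnot6 and Nefl (0.0572 and 0.0606). Lists of ER chaperones (27 genes, median -0.20), cytosolic chaperones (22, 0.30), cholesterol and fatty acid synthesis (34, -0.10), germline genes (19, 0.54) and retroviral silencing (20, 0.13) held no edgeR call. At an unadjusted p under 0.05 they held 3, 2, 1, 4 and 0 genes, and DESeq2 called 1, 0, 0, 2 and 0.

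**Figure D4:**
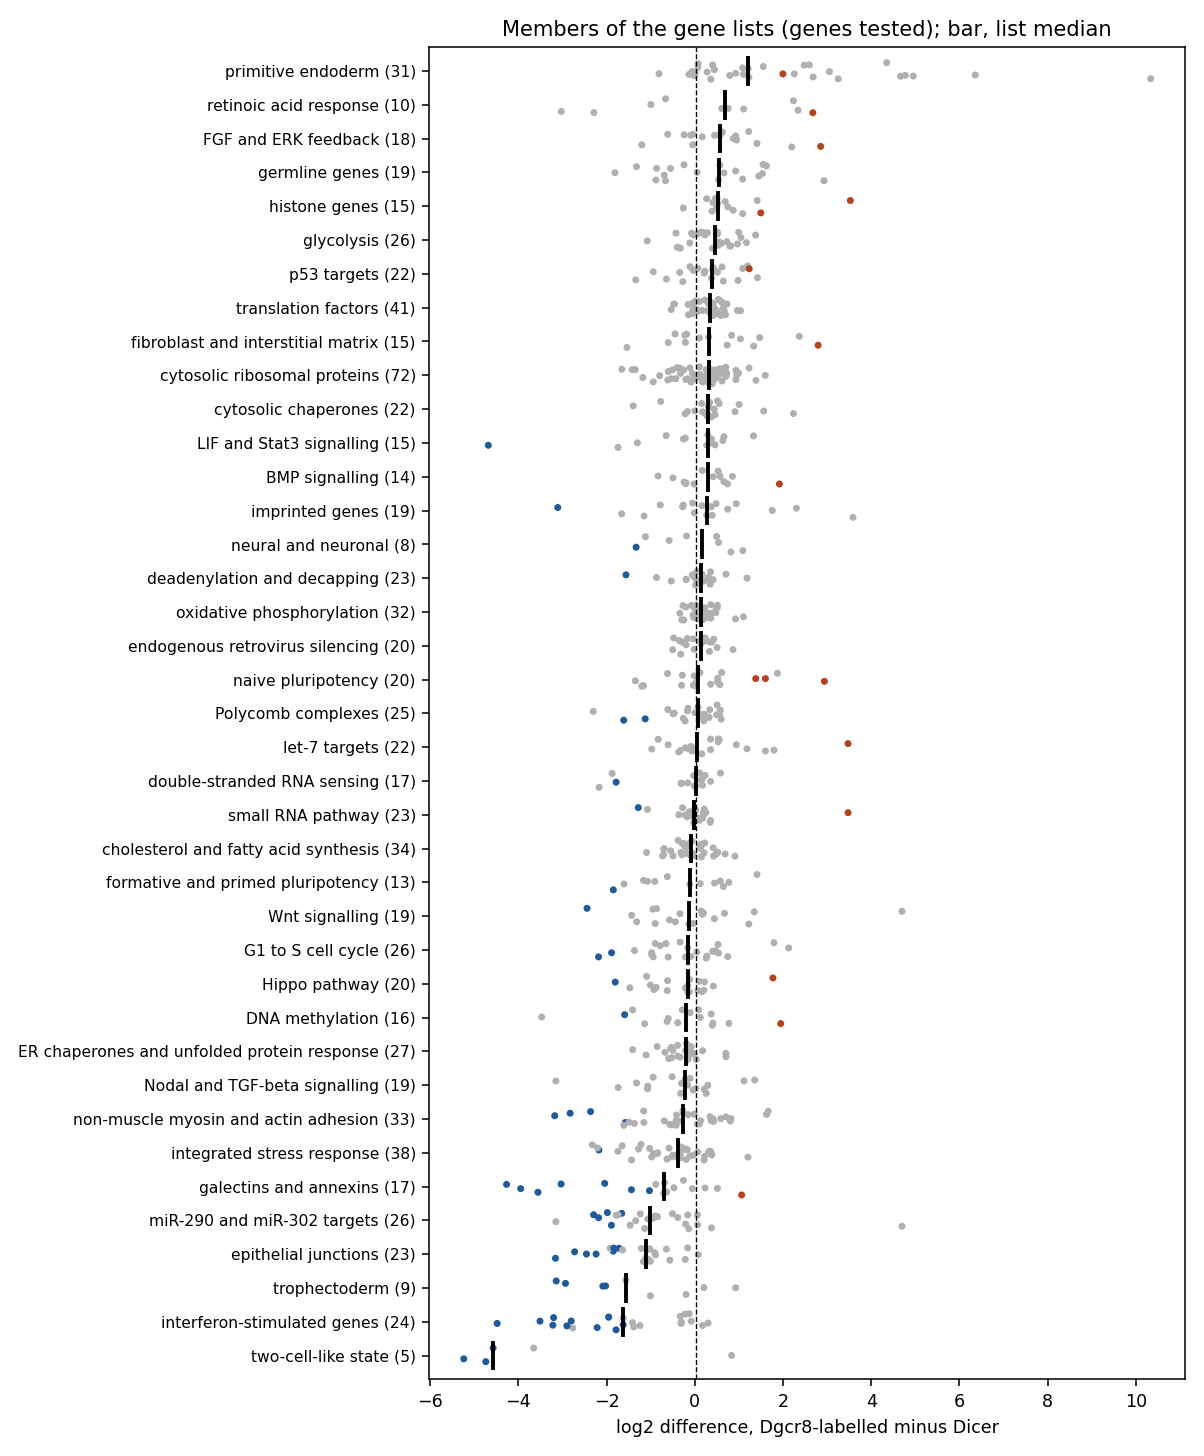
Log2 difference (Dgcr8-labelled minus Dicer) of the tested members of each gene list with 5 or more tested genes, 1 row per list with its number of genes, called genes coloured (red higher in Dgcr8-labelled, blue higher in Dicer) and a black bar at the list median. The medians run from -4.57 for the 2-cell-like list to 1.21 for primitive endoderm, and the dashed line marks the median of all genes, 0.04.

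Genes of the 2-cell-like state, a rare state in which stem cells transcribe genes of the 2-cell embryo, had 3 of 5 tested members called, all scarce and higher in Dicer. The list names 19 genes, and the count table holds only these 5. Over all genes 3.19% were called higher in Dicer. Zscan4d was at 0.182 and 0.398 CPM in the Dgcr8-labelled libraries and 9.1 and 7.72 in the Dicer libraries (log2 -5.24, SE 1.15, edgeR adjusted p = 0.03) and Tmem92 at 0.376 and 0.598 against 14 and 8.27 CPM (log2 -4.74, SE 0.83, edgeR adjusted p = 0.0122). Usp17le was at 0.739 and 0.199 against 7.71 and 7.17 CPM and was not called (edgeR adjusted p = 0.0615), and Eif1a, a translation initiation factor gene far more abundant than the rest, was at 53.7 and 67.9 against 32.4 and 35.9 CPM, the opposite side, and was not called either (edgeR adjusted p = 0.342). In the Ago libraries Zscan4d was at 32.9 and 5.39 CPM and Tmem92 at 38.3 and 9.66, both above the Dgcr8-labelled values. Zscan4d belongs to a cluster of near-identical copies, so its value may hold reads of other copies. Without either the first Dgcr8-labelled or the first Dicer library all 3 calls were lost (edgeR adjusted p 0.0979 to 0.223 and 0.130 to 0.186), and Zscan4d and Gm12794, the third call, also without the second Dgcr8-labelled (0.0685 and 0.0911) or second Dicer library (0.0618 and 0.0879), by limma-voom (0.0979 to 0.0997) or after thinning to equal depth (0.0726 to 0.130).

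A stretch of chromosome 17 had lower values in the Dgcr8-labelled libraries. It was noticed after the values were seen, and 10 Mb windows of all chromosomes were then compared. Of 200 windows with at least 20 genes, those at 80 to 90 Mb and 70 to 80 Mb of chromosome 17 had the lowest medians, -1.09 and -0.90, and the highest median of any window was 0.47. Of the 70 genes tested between 70 and 90 Mb, 67 had a log2 difference below 0, against 47.5% of all genes. In 59 both Dicer libraries were above both Dgcr8-labelled ones, against 25.7% of all genes. Called higher in Dicer were 18 (25.7%), against 3.19% of all genes. The median was -0.93 between the first libraries and -1.10 between the second. Against WT the median of these genes was -0.85 in the Dgcr8-labelled libraries, 0.17 in Dicer, 0.12 in Drosha and 0.04 in Ago. In 41 of the 70 (58.6%) both Dgcr8-labelled libraries were below all 8 others, against 2.66% of all genes. From 0 to 60 Mb the 466 genes had a median of 0.06, and the 19 genes from 60 to 70 Mb -0.74. Within the former, the window from 0 to 10 Mb was low as well, with a median of -0.65 and 11 of 20 genes below 0. Against WT its median was 0.04 in the Dgcr8-labelled libraries and 0.37 in Dicer.

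Named members of this stretch were chosen after their values were seen. Fbxo11, a ubiquitin ligase subunit (chr17:87990859-88065291), was at 24.9 and 18.1 CPM in the Dgcr8-labelled libraries and 83.3 and 74.5 in the Dicer libraries and at 57.6 and 49.8 in WT (log2 -1.86, SE 0.28, edgeR adjusted p = 0.00666). Birc6, a large inhibitor of apoptosis, was at 287 and 319 against 899.6 and 907 CPM, with 463 and 539 in WT (log2 -1.58, SE 0.26, edgeR adjusted p = 0.0107). Smchd1, a chromatin protein of the inactive X chromosome, was at 78.6 and 82.5 against 172 and 202 CPM, with 149 and 192 in WT (log2 -1.22, SE 0.27, edgeR adjusted p = 0.0313). In all 3 the Dgcr8-labelled libraries were the lowest of the 10. Without the first Dicer library their edgeR adjusted p was 0.0978 to 0.186, without the first Dgcr8-labelled library Birc6 and Smchd1 lost the call (0.0766 and 0.135), and Smchd1 also without the second of either group (0.0887 and 0.150) or a WT library (0.0587 and 0.0658). Epcam (chr17:87635979-87651129) and Eif2ak2 (chr17:78852564-78882573) are among the 18 called genes, and the share of their differences that goes with their position was not tested. Gene copy number was not tested.

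Chromosome 15 and the sex chromosomes were looked at in the same way. The 452 genes of chromosome 15 had a median log2 difference of -0.30, with -0.32 and -0.30 in the replicates, and 30 (6.64%) were called higher in Dicer. Against WT their median was 0.03 in the Dgcr8-labelled libraries, 0.31 in Dicer, 0.37 in Drosha and 0.48 in Ago. Krt7, Krt8 and Krt18 lie on this chromosome, with log2 differences of -2.08, -3.14 and -2.02. On the Y chromosome 4 of 5 genes were called higher in Dicer. Uty, a histone demethylase relative, was at 1.11 and 0.398 CPM in the Dgcr8-labelled libraries and 57.7 and 33.6 in the Dicer libraries, with 24.4 and 7.38 in WT (log2 -5.61, SE 0.69, edgeR adjusted p = 0.00399). Ddx3y, an RNA helicase, was at 5.95 and 0.199 against 156 and 156 CPM (log2 -5.36, SE 0.81, edgeR adjusted p = 0.0066), and Eif2s3y and Uba1y were listed at 0 in the second Dgcr8-labelled library. The 8 other libraries held all of these genes. Y genes have X homologs, so some reads may be shared. On the X chromosome 9 of 358 genes (2.51%) were called higher in the Dgcr8-labelled libraries and 8 (2.23%) higher in Dicer, against 0.884% and 3.19% of all genes, and the median was -0.04. Among the 9 were Tro, Armcx2 (log2 3.56, SE 0.53, edgeR adjusted p = 0.0066) and the chromatin remodeller Smarca1 (log2 2.70, SE 0.43, edgeR adjusted p = 0.00842). Apart from Uty, those named lost the call without the first Dicer library (edgeR adjusted p 0.0581 to 0.156), and Uba1y without either Dgcr8-labelled (0.0536 and 0.0674) or the second Dicer library (0.0740) and by limma-voom (0.0519).

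**Figure D5:**
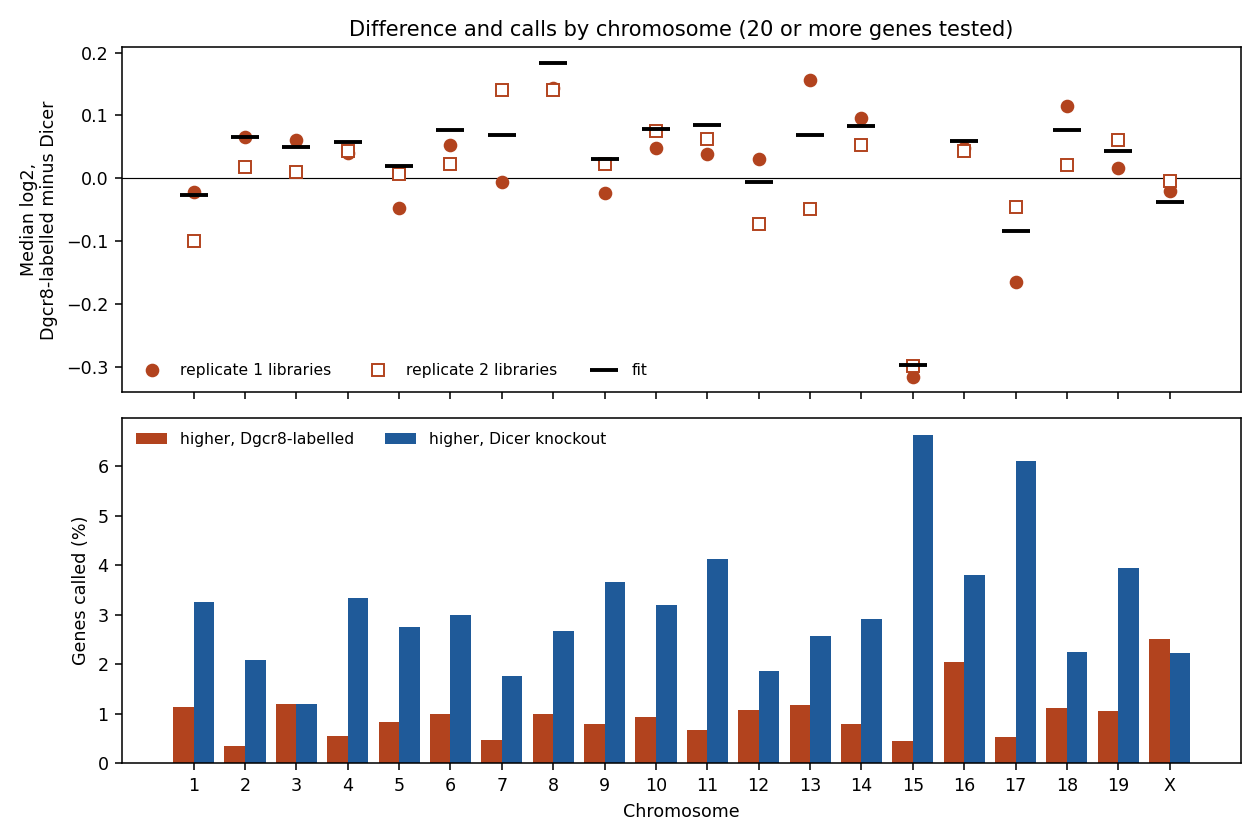
Top, median log2 difference (Dgcr8-labelled minus Dicer) of the genes of each chromosome with 20 or more tested genes, in the fit and in each pair of same-numbered libraries; bottom, percent of genes called in each direction. Chromosome 15 has the lowest median (-0.30), and chromosomes 15 and 17 have the highest shares called higher in Dicer (6.64% and 6.10%).

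The other groups were set beside the called genes as a reference. WT was nearer to the Dgcr8-labelled libraries than to Dicer in 318 of the 350 genes higher in Dicer and in 91 of the 97 higher in the Dgcr8-labelled libraries, against 67.8% of all genes. Drosha was nearer to the Dgcr8-labelled libraries in 28.6% of the 350 and 53.6% of the 97, against 46.4% of all genes. For Ago these shares were 44.6% and 68.0%, against 50.9% of all genes. Grb10, an imprinted growth inhibitor, was among the exceptions, at 34.8 and 9.76 CPM in the Dgcr8-labelled libraries and 206 and 190.3 in the Dicer libraries and 472 and 576 in WT (log2 -3.11, SE 0.53, edgeR adjusted p = 0.0115). Its Dgcr8-labelled values were the lowest of the 10 libraries, and its call was lost without the first Dicer library (0.0837).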

How the data were processed

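Ribosome footprint counts of 10 mouse embryonic stem cell libraries were used, 2 in each of 5 groups. The authors' table holds raw counts, 1 whole number for each gene and library, and was used as deposited. Trimmomatic, Bowtie2 and the builds GRCm38 (mm10) and BDGP6 (dm6) are listed, without versions, per the submitters' processing notes. The counting tool, annotation and strand setting are not given in the sources used here, so overlapping genes, antisense genes and near-identical copies may hold one another's reads. All 11011 genes were found in GENCODE M21, and 16 symbols turned into dates were repaired. Column names were matched to the labels by library number. Those of the Ago libraries carry other replicate numbers than the labels, and the replicate numbers of the labels were used.

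The test was that of edgeR 4.0.16 in R 4.3.3 (TMM scaling, filterByExpr, which removed 33 genes, quasi-likelihood F-test, 1 mean per group, 5 residual degrees of freedom, 2-sided, Benjamini-Hochberg over all genes tested, threshold 0.05). Log2 differences are Dgcr8-labelled minus Dicer. The SE is the absolute log2 difference over the square root of the F statistic. On simulated counts the test called 9 of 66 genes changed by 1 on the log2 scale, 45 of 67 changed by 2 and 65 of 67 changed by 3, and 8 of 10749 unchanged ones. The changed genes were drawn from those with high mean counts, and all libraries were simulated from a common profile. These figures therefore do not cover scarce genes. Differences against WT use group mean CPM with a pseudocount of 0.5. An exact permutation test of 2 against 2 libraries cannot go below p = 0.333 and was not used. Alternatives were DESeq2 1.42.0, limma-voom (limma 3.58.1), other scalings, filters, depths and sample sets, and a replicate block.

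Named were the 5 targeted genes, 12 genes per direction with the largest difference and 6 with the smallest p (adjusted p under 0.05, at least 20 CPM in the higher group, no overlap), and up to 4 members of each of 42 lists. Other members, and the genes of chromosomes 15, 17, X and Y, were named after their values were seen. Some genes that the rule names are not reported here. The comparison, members and lists were chosen with earlier results of these data known.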

Additional observations from a re-analysis of the deposited data

How the results depend on the processing

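The number of genes called moved by more than 1.5 times under some alternatives. DESeq2 called 893 genes (229 higher in the Dgcr8-labelled libraries and 664 higher in Dicer), and limma-voom called 39 on the Dgcr8-labelled side and 489 on the Dicer side, a share of 7.39% against 21.7% on the Dgcr8-labelled side in edgeR. Leaving out 1 library at a time gave 12 to 544 calls, 0 to 128 higher in the Dgcr8-labelled libraries and 12 to 418 higher in Dicer. Without the first Dicer library edgeR called 0 genes higher in the Dgcr8-labelled libraries, where 1009 genes of either direction had an unadjusted p under 0.05. With the replicate number as a block 779 genes were called (193 and 586), the 447 called without the block among them. Deviations of libraries with the same number in their labels correlated at 0.208 between these groups and at 0.0610 to 0.287 over all pairs of groups. With 2 numbers this does not pair the samples. DESeq2 size factors, total counts, no filter, a mean of 50 counts, the 4 libraries alone and thinning to 1754710 counts gave 363 to 462 calls. Total counts as library sizes moved the median of all genes from 0.04 to 0.09. Uncalled genes that changed sign were Drosha (0.021 with total counts, and -0.43 to 0.28 without 1 library), Trim71 (-0.11 to 0.72), Des (-0.020 to 0.92), Kdr (-0.14 to 1.35), Cd34 (-1.44 to 0.088) and Rpsa (-2.19 to 0.19), each without 1 library. With 8-base in place of 7-base sites the median for 1 or more sites moved from -0.15 to -0.28 for the miR-290 and miR-302 seed. It moved from -0.13 to -0.31 for miR-17, from -0.035 to -0.081 for let-7 and from -0.019 to -0.086 for miR-15. For miR-26 it went from -0.060 to -0.10 and for miR-25 from -0.097 to -0.22. For miR-30 it went from -0.037 to -0.061 and for miR-183 from -0.036 to -0.12. The cause of these moves was not tested. The second Dicer library, at 1754710 counts, limits low genes most.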

Other observations

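Of 3 tested metallothioneins, small metal-binding proteins, 2 were called, both higher in Dicer, and this set was chosen after the values were seen. Over all genes 3.19% were called higher in Dicer. Mt2 was at 795 and 835 CPM in the Dgcr8-labelled libraries and 4870.2 and 3613 in the Dicer libraries, with 535 and 475 in WT (log2 -2.38, SE 0.33, edgeR adjusted p = 0.00581). Mt1 was at 124 and 270.2 against 1026 and 632 CPM (log2 -2.08, SE 0.39, edgeR adjusted p = 0.0154). The brain-type Mt3 was scarce, at 6.13 and 1.79 against 1.78 and 0.552 CPM, and was not called (edgeR adjusted p = 0.367). In Drosha Mt2 reached 4093 and 3319 CPM, so the Dgcr8-labelled libraries were on the side of WT. Without the first Dicer library the edgeR adjusted p was 0.0646 for Mt2 and 0.178 for Mt1, and without the first Dgcr8-labelled library 0.0899 for Mt1.

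Gpx3, a secreted glutathione peroxidase, had no count in either Dicer library, with 21.4 and 4.38 CPM in the Dgcr8-labelled libraries and 24.2 and 28.3 in WT. It was called (edgeR adjusted p = 0.0122), and the call was lost without the first Dicer library (0.184) and by limma-voom (0.0560). Its level in the second Dgcr8-labelled library was well below that in the first, and 3 counts over the Dicer group would be 0.437 CPM. Wdr86 was the other called gene without a count in Dicer, at 2.97 and 3.39 CPM in the Dgcr8-labelled libraries (edgeR adjusted p = 0.026), and it lost the call without any 1 of the 4 compared libraries (0.0547 to 0.356), without the second WT library (0.0554) and by limma-voom (0.0560). Reads copied by PCR are not separate molecules, so the floor covers counting error only. Both genes fell outside the rule for named genes.

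Mcm3ap, which encodes the mRNA export factor GANP, was at 445 and 472 CPM in the Dgcr8-labelled libraries and 151 and 185 in the Dicer libraries, and between 146 and 242 in the other 6 libraries (log2 1.45, SE 0.25, edgeR adjusted p = 0.0122). It was chosen after its values were seen, and its adjusted p was 0.195 without the first Dicer library.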
